A study of Mus musculus with 3 samples.

Results

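Splenic stromal and endothelial cells were picked out of 3 single-cell RNA libraries of mouse spleen by a gate on 9 genes. A barcode was a member when it had at least 300 genes, at least 500 UMIs (unique molecular identifiers, 1 for each captured transcript) and at most 10% mitochondrial UMIs. It also needed a UMI of at least 3 of Sparc, Cxcl12, Bgn, Igfbp7, Dcn, Col4a1, Plvap, Fabp4 and Coch, and none of the B cell gene Cd79a or the T cell gene Cd3e. Members were thus chosen by these measured counts, and the counts of the 9 genes are given as a description. The gate held 68 of 49499 filtered barcodes, with 21 of 15864 in the MASH-Phe-free spleen, 17 of 17651 in the MASH spleen and 30 of 15984 in the Chow spleen. The labels give the 3 groups only by these treatment names, and each group was 1 library, so no difference between groups could be tested. The sources used here do not state strain, diet composition, number of animals or tumour status of the spleen donors. The series' design text covers C3H mice on a high-fat and then a modified methionine- and choline-deficient diet, with HCA-1 liver cancer cells grown under the skin. That text concerns bulk RNA of the tumours and does not mention the spleens.

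The label held for a part of the gate. On 16 endothelial and 22 mesenchymal genes that the gate did not use, 31 members were endothelial-like, with at least 3 endothelial genes and more endothelial than mesenchymal ones. A further 12 held at least 3 mesenchymal genes and more mesenchymal than endothelial ones, which is called a majority of mesenchymal genes below. They were left without a cell type name, because most were shallow and rested on few markers. The other 25 met neither rule, and 14 of those 25 had UMIs of at least 3 of 10 genes shared by blood cells, such as Ptprc and Tyrobp. The 68 barcodes are therefore called gate members below, and "endothelial-like" is kept for the 31.

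The red pulp of the spleen is drained by venous sinuses, whose endothelium takes up waste from the blood through scavenger receptors such as stabilin-2, the product of Stab2. Reticular fibroblasts build the collagen meshwork of the organ and place blood cells within it through chemokines such as CXCL12. Stromal cells are anchored in this matrix, and a suspension of spleen cells holds mostly blood cells.

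The members were much shallower than the rest of each library, apart from a few very deep barcodes. Their median depth was 2098 UMIs in the MASH-Phe-free spleen, 1797 in the MASH spleen and 1538 in the Chow spleen. The other filtered barcodes had medians of 6674, 6419 and 7358 UMIs in the same order of libraries. Under 1000 UMIs were counted in 19 of the 68 members, and at least 10000 in 14. The deepest member alone held 52.3% of all member UMIs in the MASH-Phe-free spleen, 30.3% in the MASH spleen and 36.5% in the Chow spleen, and the deepest 3 held 70.7%, 77.1% and 62.2%. A value summed over members is therefore mainly a value of these few barcodes. Cmss1, looked at after its values were seen, took a median of 4.87%, 5.88% and 6.41% of a member's UMIs, against 1.35%, 1.62% and 1.37% in the other barcodes of the same libraries, and its part in the results was not tested. The libraries shared some barcode sequences, 102 between MASH-Phe-free and MASH, 77 between MASH-Phe-free and Chow and 72 between MASH and Chow, but no member's barcode occurred in another library.

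**Figure D1:**
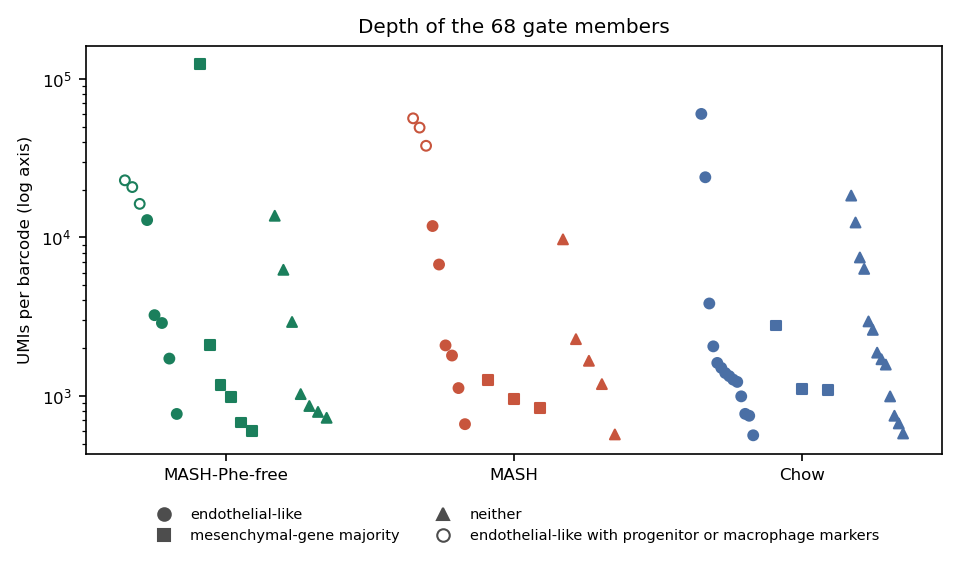
UMIs per gate member on a log axis, by library, with 1 point for each barcode and the class shown by the marker. Open circles are endothelial-like barcodes that also held progenitor or macrophage markers. The deepest member reached 123979 UMIs in the MASH-Phe-free spleen, 56366 in the MASH spleen and 60090 in the Chow spleen, while the member medians were 2098, 1797 and 1538.

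Among the genes that chose the members, 2 were common and the others were split between kinds of cell. Igfbp7, which codes for a secreted protein of vessel walls, was counted in 61 of 68 members, and Sparc, a collagen-binding matrix protein, in 56. Plvap, a component of the diaphragms of endothelial pores, was counted in 37 and Col4a1, a chain of basement membrane collagen, in 32. Cxcl12 was counted in 24, Bgn (biglycan, a matrix proteoglycan) in 23, Coch in 23, Fabp4 (a fatty acid carrier of capillaries) in 13 and Dcn (decorin) in 4. These counts describe the gate and support nothing further.

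Members at the edge of the gate were unevenly spread over the libraries. Exactly 3 of the 9 genes were found in 12 members of the MASH-Phe-free spleen, 2 of the MASH spleen and 19 of the Chow spleen, with a median depth of 4583, 1732 and 1502 UMIs and a median of 7, 2 and 1 of the 10 blood cell genes. Just outside, with exactly 2 of the 9 genes, lay 15, 11 and 21 barcodes of the same libraries, with a median of 7, 9 and 6 blood cell genes. Of these barcodes outside, 2 met the endothelial-like rule, both from the MASH-Phe-free spleen. Farther out, that rule was met by 12, 2 and 4 barcodes with 1 of the 9 genes, in the same order of libraries. It was also met by 28, 4 and 7 barcodes with none of the 9. Which cells these were was not tested. The demand for no Cd79a and no Cd3e left out 4, 5 and 7 barcodes that had enough of the 9 genes.

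**Figure D2:**
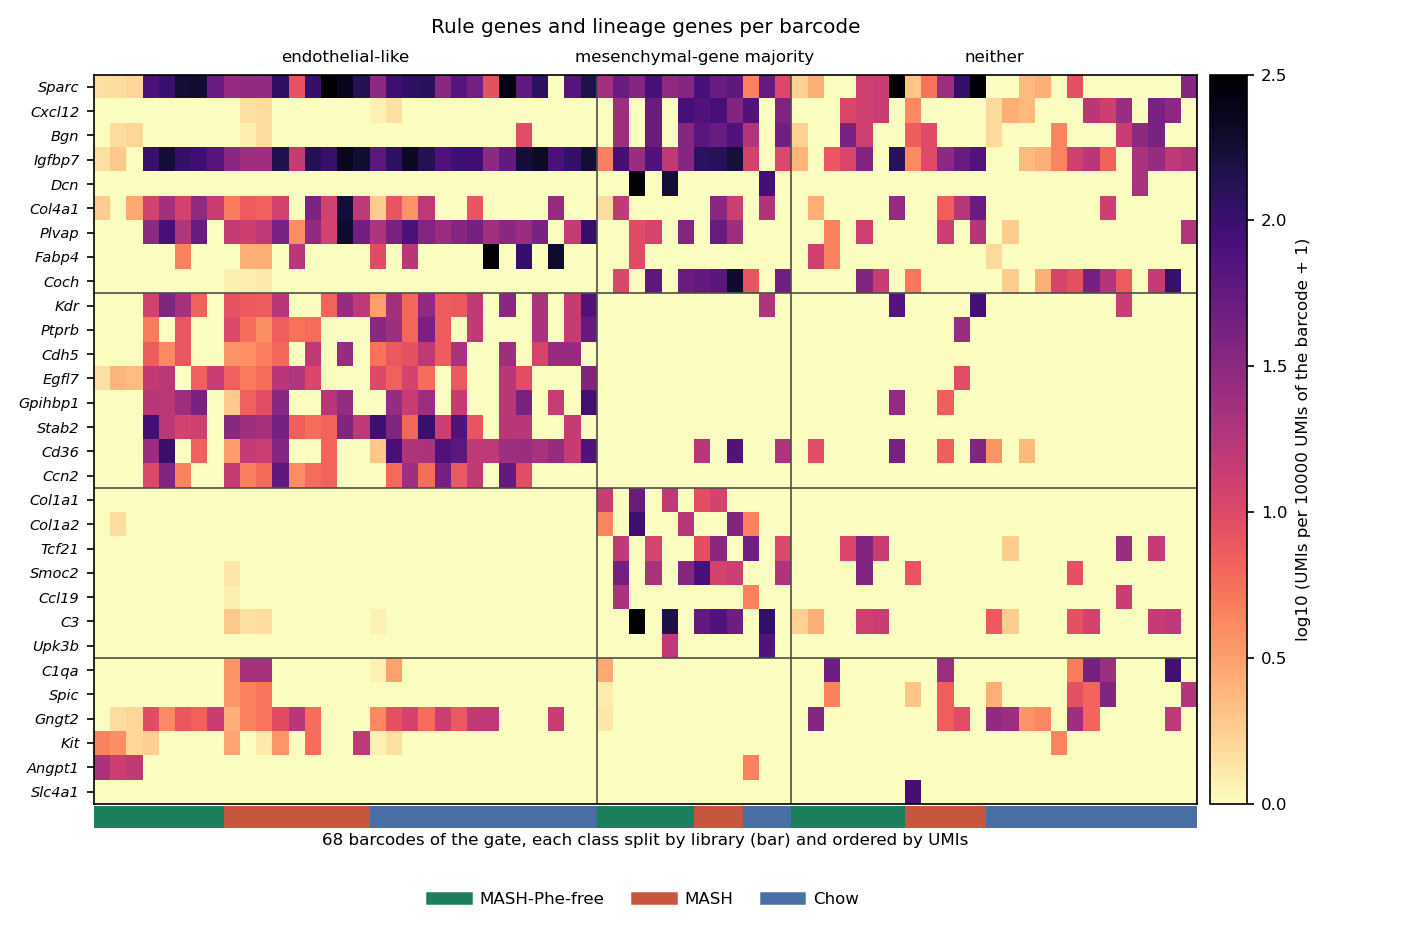
UMIs per 10000 on a log10 scale after adding 1, with 1 column for each of the 68 gate members and 1 row for each gene. Columns are grouped into 31 endothelial-like members, 12 with a majority of mesenchymal genes and 25 with neither, each split by library, and rows hold the gate genes, endothelial, mesenchymal and other cells' genes. Sparc and Igfbp7 run through the first 2 groups. Genes of other cells appear in each group, such as Angpt1 in endothelial-like MASH-Phe-free barcodes, C1qa in the deepest mesenchymal-gene barcode and Slc4a1 in a barcode with neither.

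The 31 endothelial-like members were 8 in the MASH-Phe-free spleen, 9 in the MASH spleen and 14 in the Chow spleen. They held a median of 6 of the 16 endothelial genes and up to all 16, and 22 of the 31 had no UMI of any mesenchymal gene. Genes of vessel types, which neither the gate nor the class used, were also counted. At least 3 of 10 sinusoidal genes, such as Stab2 and Cd36, were counted in 3, 6 and 10 of them in the MASH-Phe-free, MASH and Chow spleens, 19 in all. At least 3 of 11 arterial and capillary genes were counted in 2, 4 and 3, and at least 3 of 7 venous and marginal sinus genes in 1, 3 and 1. Among the MASH barcodes so counted, 3 also held all 10 red pulp macrophage markers, and without them the MASH count was 3 for sinusoidal, 1 for arterial and capillary and 0 for venous and marginal sinus genes. Lyve1, a receptor of lymphatic and liver sinus endothelium, was at 0 in all 31, as were the arterial genes Gja4 and Bmx, and Madcam1, an adhesion molecule of the marginal sinus, gave 1 UMI in 1 Chow barcode.

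Igfbp7, Sparc, Stab2 and Plvap were the 4 genes highest relative to all other filtered barcodes, with an offset of 10 CPM (UMIs per 1000000). Summed over the 31 barcodes, Igfbp7 was at 4998 CPM, Sparc at 4081 CPM, Stab2 at 3522 CPM and Plvap at 1792 CPM. Next in that order came Ptprb, an endothelial phosphatase, at 1050 CPM, and Rbfox1 at 873 CPM, all of whose 306 UMIs lay in 1 barcode. Tfpi, an inhibitor of blood clotting made by endothelium, was at 842 CPM, Ccn2, a matricellular protein and target of TGF-beta and YAP, at 714 CPM, and Gpihbp1, which anchors lipoprotein lipase to capillary walls, at 679 CPM. Of these, Stab2, Tfpi, Ccn2 and Gpihbp1 were used by neither the gate nor the class.

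Some endothelial-like barcodes stood apart. In the MASH-Phe-free spleen 3 of the 8, with 22909, 20765 and 16267 UMIs, had only 4, 4 and 5 UMIs of the gate genes and 4, 3 and 3 of 6 progenitor markers. Their leading genes included Angpt1, a ligand of the endothelial receptor TIE2, with 45, 26 and 23 UMIs. Mecom and Hlf are transcription factors of blood stem cells. Mecom was among the leading genes of the barcodes of 20765 and 16267 UMIs, and Hlf among those of the latter. In the MASH spleen 3 of the 9, with 56366, 49263 and 37825 UMIs, held all 10 of 10 red pulp macrophage markers beside 179, 116 and 78 UMIs of Stab2 and 152, 136 and 109 of Sparc. No Chow barcode had 3 progenitor markers or 8 macrophage markers. Leaving these 6 out, a choice made after the data were seen, kept 25 endothelial-like barcodes, 5 in the MASH-Phe-free spleen, 6 in the MASH spleen and 14 in the Chow spleen. These 25 are called the restricted set. Over its barcodes Igfbp7 was at 9328 CPM, Sparc at 7008 CPM, Stab2 at 5858 CPM and Plvap at 2960 CPM, in the same order as over the 31.

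Of the barcodes that remained, the deep ones described next held 7, 5, 6 and 7 of the 10 sinusoidal genes, in the order given. A Chow barcode of 2053 UMIs also held 6, so this count did not set the deep ones apart. A MASH-Phe-free barcode of 12856 UMIs had all 16 endothelial genes, with 131 UMIs of Igfbp7, 113 of Stab2 and 98 of Sparc. A MASH barcode of 11789 UMIs had 168 of Igfbp7, 132 of Sparc, 68 of Ccn2, 50 of Stab2 and 40 of Cd36. A Chow barcode of 60090 UMIs had 548 of Stab2, 365 of Igfbp7 and 190 of Ptprb, with 7 of 10 megakaryocyte and platelet markers. The restricted set was not chosen on those markers, and this barcode held 59.3% of its Chow UMIs. A Chow barcode of 23945 UMIs had 282 of Igfbp7, 226 of Sparc and 203 of Cd36, with 6 of 10 macrophage markers. The gate gene Fabp4 had 58, 13 and 15 UMIs in 3 shallow Chow barcodes of 1332, 1225 and 770 UMIs. These 3 held 3, 4 and 2 of the 10 sinusoidal genes, and the Chow barcode of 60090 UMIs had 51 UMIs of Fabp4.

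The 12 members with a majority of mesenchymal genes were 6 in the MASH-Phe-free spleen, 3 in the MASH spleen and 3 in the Chow spleen. Their median depth was 1083, 955 and 1101 UMIs. In 8 of them Cxcl12 and Coch were counted together: 3, 3 and 2 barcodes of the 3 libraries. In these 8, Smoc2, a matrix-associated protein, was counted in 7 and Tcf21, a transcription factor of spleen stroma, in 6, and neither gene was used by the gate or the class. Smoc2 had 9, 2 and 2 UMIs in the MASH-Phe-free barcodes, 10, 1 and 1 in the MASH barcodes and 2 in 1 of the 2 Chow barcodes. The central complement gene C3 had no UMI in the 3 MASH-Phe-free barcodes of this kind, 7, 7 and 4 in the 3 MASH barcodes and none in the 2 Chow barcodes. The depths were 2098, 989 and 601 UMIs in the MASH-Phe-free barcodes, 1258, 955 and 836 in the MASH ones and 2782 and 1087 in the Chow ones, and C3 was singled out after its values were seen.

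The other 4 were of other kinds. Dcn and C3 went together in 2 MASH-Phe-free barcodes, 1 of 1177 UMIs with 76 of C3, 37 of the acute phase gene Saa3, 35 of Dcn and 12 mesenchymal genes, and 1 of 680 UMIs with 12 of Dcn and 10 of C3. A Chow barcode of 1101 UMIs had 43 of Slpi, 10 of Dcn and 8 of Upk3b, a marker of the mesothelium that covers the organ. The deepest member of all, a MASH-Phe-free barcode of 123979 UMIs, had 961 UMIs of Ly6a, 495 of Slurp1, 279 of the keratin Krt34, 275 of Sparc and 156 of Col1a1, with 9 mesenchymal genes, 4 of 7 mesothelial markers and 10 of 10 macrophage markers. Rgs5, Notch3, Lum and Ccl21a, markers of pericytes and of reticular fibroblasts of the white pulp, were at 0 in all 68 members. Other markers of such cells were counted. Tagln had 3, 3 and 8 UMIs in the mesenchymal-gene members of the MASH-Phe-free, MASH and Chow spleens. Ccl19 had 4 UMIs in the MASH-Phe-free barcode of 2098 UMIs.

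The 25 members with neither pattern were 7 in the MASH-Phe-free spleen, 5 in the MASH spleen and 13 in the Chow spleen. They had a median of 7 UMIs of the 9 gate genes together, against 62 in the endothelial-like and 38 in the mesenchymal-gene members. At most 3 UMIs of every gate gene were found in 15 of the 25. At least 3 blood cell genes were counted in 3, 2 and 9 of them. Monocyte genes led some of the deep ones, as in a MASH-Phe-free barcode of 13683 UMIs with 444 of Lyz2 and a Chow barcode of 18341 UMIs with 142 of Plac8 and 51 of Gngt2. Macrophage genes led a Chow barcode of 2608 UMIs, with 33 of Hmox1, the enzyme that breaks down haem, and 14 of Marco, a scavenger receptor known from macrophages of the marginal zone. Erythroid genes led a MASH barcode of 9713 UMIs, with 8 of 9 erythroid markers, 84 UMIs of Slc4a1 and 108 of the proliferation gene Mki67. Under 3 blood cell genes were counted in 11 of the 25, and the erythroid-gene barcode, which had none, was among these. Of the 11, 8 had Coch, Cxcl12 or Bgn, and the erythroid-gene barcode was again among them. The other 3 had neither sign, among them shallow barcodes such as a MASH-Phe-free one of 727 UMIs with 32 of Sparc and 5 of Kdr.

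T cell genes were nearly absent from the members, as the gate would give, with 4, 0 and 2 UMIs over 6 T cell markers in the MASH-Phe-free, MASH and Chow spleens. Macrophage markers summed to 831, 6706 and 1191 CPM in members of the 3 libraries, and monocyte markers to 2981, 1762 and 4175 CPM. Genes of the exocrine pancreas, which lies beside the spleen, gave 2, 10 and 48 UMIs over 12 genes, and 2 Chow members had at least 3 of the 12. Of these 2, the barcode of 1394 UMIs, with 7 of the 12, belonged to the endothelial-like class and to the restricted set. The part of other cells' RNA in the differences between libraries was not tested.

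The share of gate members among filtered barcodes was 0.132% in the MASH-Phe-free spleen (95% Clopper-Pearson interval 0.082% to 0.202%), 0.0963% in the MASH spleen (0.0561% to 0.154%) and 0.188% in the Chow spleen (0.127% to 0.268%). The intervals cover counting error only, and with 1 library a group the spread between animals is unknown. The MASH share was 0.513 times the Chow share (0.283 to 0.93), the MASH-Phe-free share was 1.37 times the MASH share (0.725 to 2.6) and 0.705 times the Chow share (0.404 to 1.23). Of these 3 ratios, that of MASH to Chow had a counting interval away from 1. It turned round when at least 4 of the 9 genes were required, with 9 MASH-Phe-free, 15 MASH and 11 Chow members, or 0.0567%, 0.085% and 0.0688%. In a further setting barcodes under 1000 UMIs were left out and the others thinned to 1000 UMIs each. This kept 14191, 15412 and 14390 filtered barcodes in the MASH-Phe-free, MASH and Chow spleens. The MASH-Phe-free share then came below the MASH share, at 0.0423%, against 0.0714% in MASH and 0.118% in Chow, with 6, 11 and 17 members. Shares of these spleen suspensions also depend on how many stromal cells were freed from the tissue, which cannot be told apart from the diet.

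Endothelial-like gate members made up 0.0504% in the MASH-Phe-free spleen (0.0218% to 0.0993%), 0.051% in the MASH spleen (0.0233% to 0.0968%) and 0.0876% in the Chow spleen (0.0479% to 0.147%). Barcodes outside the gate that met the same class rule were not counted in these shares. They were most numerous in the MASH-Phe-free spleen. The MASH share was 0.582 times the Chow share (0.252 to 1.34), and the MASH-Phe-free share was 0.989 times the MASH share (0.382 to 2.56), so that counting error covered both differences. In the restricted set the shares were 0.0315%, 0.034% and 0.0876%, the ratio of MASH to Chow was 0.388 (0.149 to 1.01) and that of MASH-Phe-free to Chow 0.36 (0.13 to 0.999), whose interval lay just below 1. Barcodes with a majority of mesenchymal genes made up 0.0378%, 0.017% and 0.0188% of the MASH-Phe-free, MASH and Chow libraries, and the ratio of MASH-Phe-free to MASH was 2.23 (0.557 to 8.9). The members with neither pattern made up 0.0441%, 0.0283% and 0.0813%, and here the ratio of MASH to Chow was 0.348 (0.124 to 0.977).

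**Figure D3:**
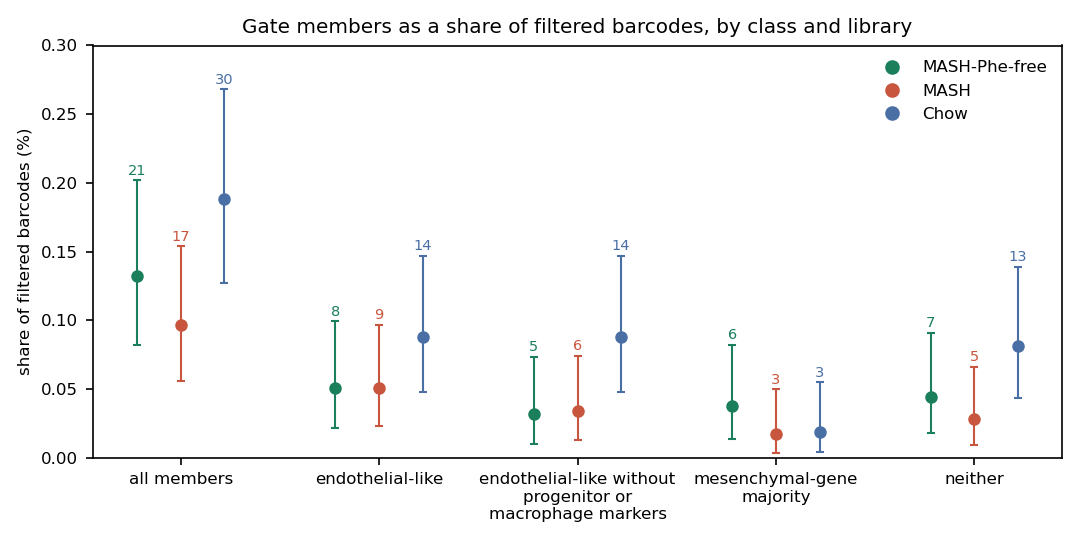
Share of filtered barcodes in percent, for all gate members and for each class, by library, with 95% Clopper-Pearson intervals and the number of barcodes above each bar. For all members the share was 0.132% in the MASH-Phe-free spleen, 0.0963% in the MASH spleen and 0.188% in the Chow spleen, and the intervals of neighbouring libraries overlap.

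Within the endothelial-like members the number of barcodes with a UMI differed between libraries for Cd36, a scavenger receptor and fatty acid transporter of sinus and capillary endothelium that the gate and the class did not use. The gene was singled out after its values were seen. It was counted in 3 of 8 MASH-Phe-free barcodes, 5 of 9 MASH barcodes and 14 of 14 Chow barcodes. The Chow barcodes were the shallowest, with a median of 1363 UMIs, against 8043 in MASH-Phe-free and 6740 in MASH. Thinned to 500 UMIs each, Cd36 was still counted in 1, 1 and 12 of them. In T cell barcodes, which should lack it and had medians of 8540, 9295 and 9252 UMIs, Cd36 was counted in 1.16%, 2.48% and 1.23%. Its level ran from 0 to 102 UMIs per 10000 with a median of 0 in the MASH-Phe-free barcodes, from 0 to 33.9 with a median of 2.31 in the MASH barcodes, and from 0.999 to 84.8 with a median of 21.9 in the Chow barcodes. The ranges overlapped, and the difference lay in how many barcodes held the gene. Restricted-set barcodes held it in 3 of 5, 2 of 6 and 14 of 14, with medians of 5.82, 0 and 21.9. Its summed level over that set did not follow the count of barcodes, at 30.8 UMIs per 10000 in MASH-Phe-free, 16.9 in MASH and 25.7 in Chow. Without the barcode with most Cd36 UMIs in each library it was 18.1, 0.806 and 7.37. In MASH 1 barcode held 40 of the 41 UMIs, and in Chow 1 held 203 of 260.

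The basement membrane collagen gene Col4a1, a gate gene and so given as a description, went the other way. It was counted in 7 of 8 MASH-Phe-free, 8 of 9 MASH and 6 of 14 Chow barcodes, and in 3, 5 and 3 of them when thinned to 500 UMIs. Its median was 10.6 UMIs per 10000 in MASH-Phe-free, 11 in MASH and 0 in Chow, with highest values of 29.1, 170 and 26. Within the restricted set it was in 5 of 5, 5 of 6 and 6 of 14, with medians of 13, 13.1 and 0. Of T cell barcodes, 0%, 0.0741% and 0.0332% held it.

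Stab2 was counted in 4 of 8, 9 of 9 and 10 of 14 barcodes of the MASH-Phe-free, MASH and Chow spleens, or in 2, 6 and 8 at 500 UMIs, against 0.742%, 0.593% and 0.431% of T cell barcodes. Its level ran from 0 to 87.9 UMIs per 10000 with a median of 5.2 in MASH-Phe-free, from 4.8 to 42.4 with a median of 20.6 in MASH, and from 0 to 97.4 with a median of 12.9 in Chow. The restricted set held it in 4 of 5, 6 of 6 and 10 of 14, with medians of 11.6, 10.5 and 12.9, so that the medians of the 3 libraries lay close together there. Gpihbp1 was in 4 of 8, 6 of 9 and 8 of 14 barcodes, or 3, 4 and 5 at 500 UMIs, with medians of 7.74, 5.89 and 13 UMIs per 10000, against 0%, 0.0371% and 0% of T cell barcodes. Restricted-set counts were 4 of 5, 3 of 6 and 8 of 14, with medians of 16.3, 8.35 and 13. Its ranges began at 0 in each library and reached 40.7, 33.1 and 88.7, so they overlapped.

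Ccn2 was in 3 of 8 MASH-Phe-free, 7 of 9 MASH and 8 of 14 Chow barcodes, or in 1, 2 and 5 at 500 UMIs, against 0.0927%, 0.0741% and 0% of T cell barcodes. Its medians were 0, 4.8 and 4.94 UMIs per 10000, and 3.47, 3.89 and 4.94 in the restricted set. Over the restricted set Ccn2 summed to 11.7 UMIs per 10000 in MASH-Phe-free, 29.8 in MASH and 3.95 in Chow. The MASH sum rested on the barcode of 11789 UMIs, which held 68 of 72, and was 3.23 without it. Fabp4, a gate gene, was in 1 of 8, 3 of 9 and 5 of 14 barcodes, or 0, 0 and 4 at 500 UMIs, against 0.185%, 0.148% and 0.365% of T cell barcodes. Its highest level was 3.47, 16.3 and 435 UMIs per 10000, the last in the Chow barcode of 1332 UMIs.

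Igfbp7, Sparc and Plvap, which chose the members, had overlapping levels in the 3 libraries. The median of Igfbp7 was 79 UMIs per 10000 in MASH-Phe-free, 100 in MASH and 100 in Chow, and that of Sparc was 64.1, 106 and 66.7. Over the restricted set these medians were 102, 138 and 100 for Igfbp7 and 99.1, 124 and 66.7 for Sparc. Plvap had medians of 8.67, 15.1 and 32.4, and of 30.3, 33.9 and 32.4 in the restricted set. For Kdr, a receptor of VEGF and a gene of the class, the medians were 2.91, 6.5 and 10 over all endothelial-like barcodes and 10.9, 10.3 and 10 in the restricted set.

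**Figure D4:**
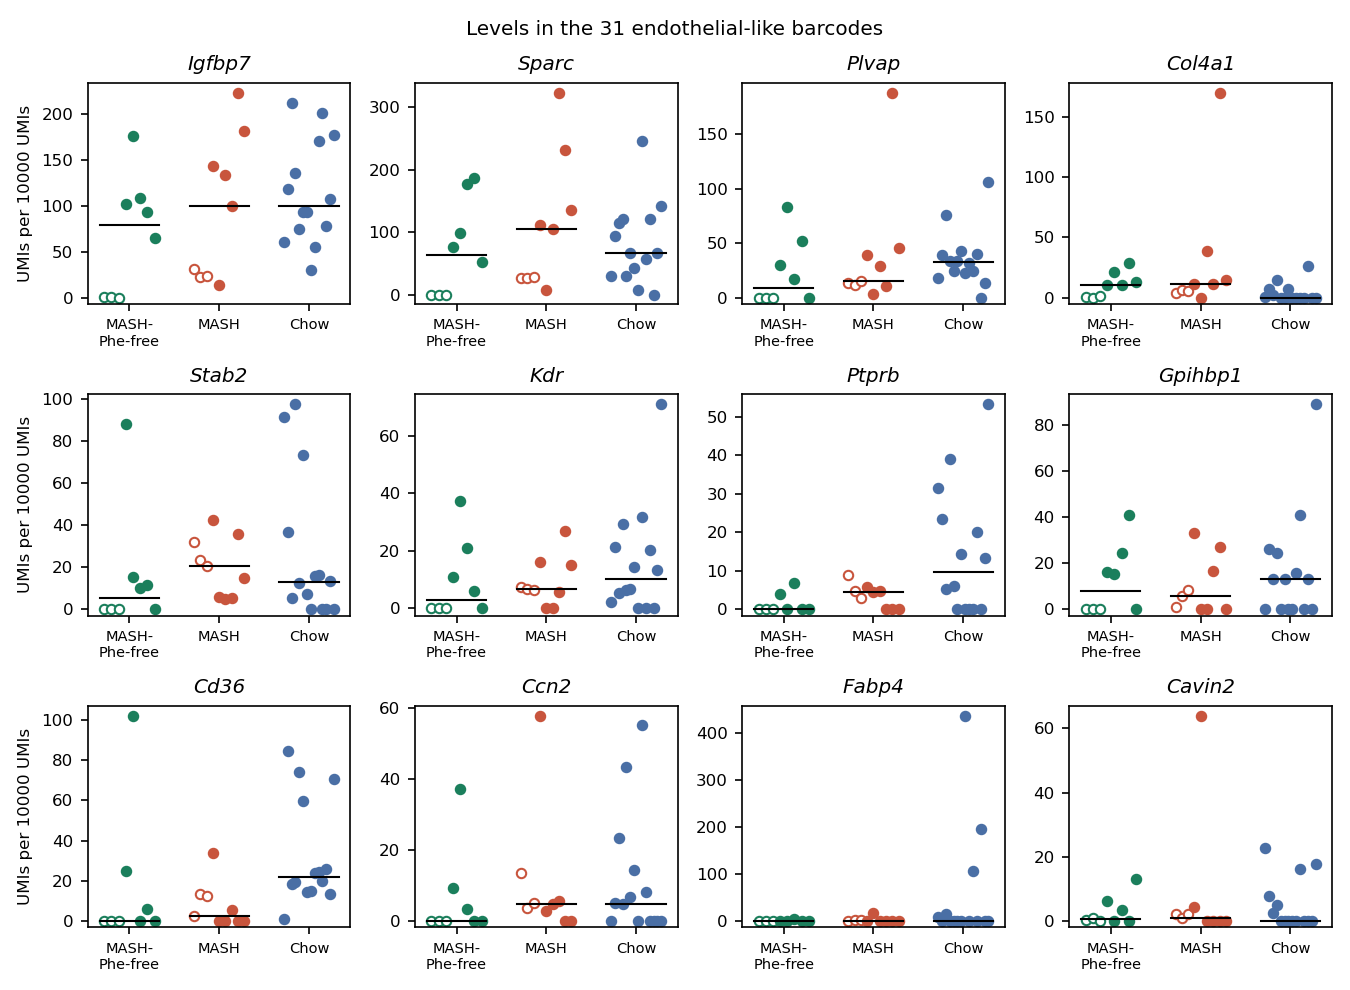
UMIs per 10000 for 12 genes in the endothelial-like members, with 1 point for each barcode, the deepest at the left within each library, and a line at the median. Open points are the barcodes with progenitor or macrophage markers. Cd36 is above 0 in all 14 Chow barcodes, in 3 of 8 MASH-Phe-free and in 5 of 9 MASH barcodes, and its levels overlap between libraries where it was counted.

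Summed over all members, with an offset of 10 CPM, 879 of the 4072 genes with at least 20 UMIs over both libraries differed at least 2-fold between MASH and Chow, which is 21.6%. Of these 489 were higher (12%) and 390 lower (9.58%) in MASH, and the median log2 ratio over all genes was 0.01. The gene lists below are described by their counts and medians, since 1 library a group allows no test, and they share the deep barcodes named above.

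Lipid genes had lower summed levels in MASH members than in Chow members. Of 15 genes of lipid uptake and caveolae, 11 could be measured, 7 were lower and 4 higher, and 3 passed 2-fold lower and 0 higher, with a median log2 ratio of -0.75. Fabp4 had 25 UMIs in MASH and 144 in Chow (-2.62), its relative Fabp5 17 and 43 (-1.42), and Cavin2, a coat protein of caveolae, 73 and 162 (-1.31). In the endothelial-like members 6 of 9 measured passed 2-fold lower, against 13.1% lower and 28.9% in either direction of all genes there, with a median of -1.35. The restricted set had a median of -0.20, with 1 of 8 measured past 2-fold higher (all genes 11.8%) and 2 lower (all genes 25.8%), and the summed level was 0.937 times that of Chow (0.791 to 1.11). Without Fabp4, which is a gate gene, the summed level was 0.674 times that of Chow over all members (0.601 to 0.756), 0.486 times in the endothelial-like members (0.432 to 0.547) and 1.07 times in the restricted set (0.9 to 1.28). Of the Cavin2 UMIs in Chow, 136 of 160 in the endothelial-like members lay in 1 barcode.

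TGF-beta genes had higher sums in MASH. All 7 measured of 17 were higher, 3 of them past 2-fold, with a median log2 ratio of 0.39. Ccn2 had 185 UMIs in MASH and 40 in Chow (1.99), and the transcriptional inhibitors Id1, with 46 and 10 (1.86), and Id3, with 65 and 17 (1.66), followed. The list's summed level was 2.07 times that of Chow over all members (1.77 to 2.44), 1.8 times in the endothelial-like members (1.51 to 2.14) and 3.83 times in the restricted set (3.07 to 4.77). Of the 523 MASH list UMIs in the endothelial-like members, 161 lay in the restricted set and the rest in the barcodes with macrophage markers. In the restricted set Id1 was in 3 of 6 MASH and 2 of 14 Chow barcodes, and 21 of its 39 MASH UMIs lay in 1 barcode. The restricted-set sum was that of a single cell to a large degree: the MASH barcode of 11789 UMIs held 123 of the 161 list UMIs. Without the barcode that held most list UMIs in each library, the list came to 30.6 UMIs per 10000 in MASH and 24.7 in Chow, against 66.6 and 17.4 with it. The median over barcodes was 9.27 UMIs per 10000 in MASH and 17.9 in Chow, so the higher sum was not a level shared by the MASH barcodes.

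Basement membrane genes were higher for 5 of 6 measured, 2 past 2-fold, with a median log2 ratio of 0.82 and Col4a1 at 127 UMIs in MASH and 33 in Chow (1.72). In the endothelial-like members the median was 0.16 and the summed level was 0.811 times that of Chow (0.735 to 0.895), but in the restricted set it was 1.92 times (1.68 to 2.19). This list includes Sparc and Col4a1, which chose the members and held 295 of its 325 MASH UMIs and 590 of its 709 Chow UMIs in the restricted set. Without those genes the summed level was 1.45 times that of Chow over all members (1.15 to 1.84), 0.94 times in the endothelial-like members (0.742 to 1.19) and 1.06 times in the restricted set (0.683 to 1.59). The ratio of the whole list in the restricted set is thus mostly one of gate genes and is a description. Adhesion molecules had a summed level 2.26 times that of Chow (1.93 to 2.66), with Vcam1, which binds the integrins of blood cells, at 363 UMIs in MASH and 61 in Chow (2.36). Of the endothelial-like Vcam1 UMIs in MASH, all 349 lay in the 3 barcodes with macrophage markers, and the restricted set had none. The same 3 barcodes held the iron exporter gene Slc40a1 and the ferritin gene Ftl1, and the acute phase and iron list, at a median of 1.36 over all members, was at -0.89 in the restricted set.

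Genes induced by glucocorticoids and of the clock had lower sums in MASH, with 7 of 8 measured past 2-fold lower and a median log2 ratio of -1.49. Fkbp5 had 23 UMIs in MASH and 66 in Chow (-1.62), and Tsc22d3 14 and 48 (-1.82). In the endothelial-like members 3 of 5 measured passed 2-fold lower, but 43 of the 49 Chow UMIs of Fkbp5 and 12 of the 16 of Tsc22d3 lay in 1 barcode, and the restricted set had 2 measured genes. Of 13 immediate early genes, 6 passed 2-fold lower and 1 higher, with a median of -0.97, and in the restricted set 2 of 8 passed in each direction, with a median of 0.65. Egr1, the 1 higher gene, had all of its 24 MASH UMIs in 1 barcode of 6740 UMIs. The proliferation list, at a median of 4.38 with 3 measured genes, rested on the erythroid-marker barcode for 108 of the 115 UMIs of Mki67.

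Type I interferon genes had 3 of 13 past 2-fold higher and 1 lower over all members (median 0.24). In the endothelial-like members 5 of 8 passed higher, against 15.8% of all genes there, with a median of 1.52, and the summed level was 2.59 times that of Chow (2.12 to 3.18). Of the 514 MASH list UMIs there, 51 lay in the restricted set and the rest in the 3 barcodes with macrophage markers. The restricted set had 1 measured gene and a summed level 1.78 times that of Chow (1.26 to 2.49). There the list came to 12.6 UMIs per 10000 in MASH and 9.3 in Chow without the barcode that held most in each library, against 21.1 and 11.8 with it. Interferon-gamma genes had 0 of 16 past 2-fold in either direction over all members (-0.11), 3 of 16 higher in the endothelial-like members (0.28), where the summed level was 1.7 times that of Chow (1.59 to 1.83), and a summed level 0.819 times that of Chow in the restricted set (0.703 to 0.95). Of the 3038 MASH UMIs of this list in the endothelial-like members, 211 lay in the restricted set and the rest in the same 3 barcodes. Of the other lists, heat shock genes 1 of 5 higher (0.43), and VEGF and angiopoietin genes 2 of 9 higher and 1 lower (-0.44). Notch genes had 1 of 4 in each direction (0.60), matrix turnover genes 2 of 7 higher and 1 lower (-0.48), and niche growth factors 2 of 2 higher (1.67). Stromal chemokines had 1 of 3 lower (-0.84), ATF4 stress genes 1 of 3 lower (-0.36), and complement 0 of 2 (-0.55). Cxcl10, the chemokine past 2-fold lower, had 50 of its 58 Chow UMIs in 1 barcode. Fibrillar collagen and matrix genes had 1 measured member, Bgn (0.31).

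Between MASH-Phe-free and MASH, 1686 of 4534 genes (37.2%) differed at least 2-fold over all members, 612 higher (13.5%) and 1074 lower (23.7%) in MASH-Phe-free, with a median log2 ratio over all genes of -0.19. With median-of-ratios scaling the split was 808 higher and 825 lower and the median 0.03, so list values are read against that of all genes. Without the deepest member of each library 778 of 2647 genes passed 2-fold, and in the restricted set 60 of 343 did, which is 17.5%, or 9.33% higher and 8.16% lower.

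Fibrillar collagen and matrix genes had the highest list median, 4.35, with 5 of 6 measured past 2-fold higher in MASH-Phe-free. Fn1 had 186 UMIs in MASH-Phe-free and 2 in MASH, Col1a1 163 and 2, Dcn 47 and 0 and Col6a3 45 and 0. These are not differences across the members: 156 of the 163 Col1a1 UMIs were in the barcode of 123979 UMIs and 35 of the 47 of Dcn in the C3-rich barcode of 1177 UMIs. Complement genes were 5 of 5 past 2-fold higher (median 1.38), with C3 at 90 UMIs in MASH-Phe-free and 27 in MASH, of which 76 of the 90 were in that same C3-rich barcode. Interferon-gamma genes were past 2-fold higher for 10 of 19 and lower for 1 (median 1.08), but at a median of -0.74 in the endothelial-like members and of 0.10 in the restricted set.

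TGF-beta genes had lower sums in MASH-Phe-free than in MASH on all 3 sets of barcodes. Over all members 4 of 10 passed 2-fold lower and 2 higher, with a median of -0.81. In the endothelial-like members 5 of 7 passed lower, against 25.4% lower and 35.9% in either direction of all genes there, and in the restricted set 3 of 4, against 8.16%, with medians of -1.68 and -1.42. The summed level was 0.373 (0.32 to 0.434), 0.394 (0.315 to 0.489) and 0.364 (0.261 to 0.501) times that of MASH in the 3 sets. Of the 523 MASH list UMIs in the endothelial-like members, 161 lay in the restricted set and the rest in the barcodes with macrophage markers. The MASH barcode of 11789 UMIs carried most of the restricted-set sum here too. Without the barcode that held most in each library the list came to 24.4 UMIs per 10000 in MASH-Phe-free and 30.6 in MASH, against 24.2 and 66.6 with it, and the median over barcodes was 13 in MASH-Phe-free and 9.27 in MASH. Immediate early genes were at -2.69 in the restricted set, with 3 of 4 past 2-fold lower, and the MASH barcode of 6740 UMIs held 123 of the 147 list UMIs. Without the barcode that held most in each library this list was at 18.6 UMIs per 10000 in MASH-Phe-free and 13.8 in MASH.

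Basement membrane genes were past 2-fold lower for 4 of 6 over all members (median -1.49), and at -0.04 in the restricted set, where the summed level was 1.01 times that of MASH (0.856 to 1.18). Lipid genes were past 2-fold lower for 5 of 8 and higher for 1 (-1.25), and at 0.00 in the restricted set. Adhesion molecules were lower for 4 of 7 (-1.19), and VEGF and angiopoietin genes lower for 5 of 8 and higher for 1 (-1.34), and these lists were at 0.45 and 0.58 in the restricted set. Acute phase and iron genes were lower for 4 of 6 and higher for 1 (-2.22), and at 0.42 with 1 measured gene in the restricted set. The median of all genes in the restricted set was 0.10. That set leaves out all members outside the endothelial-like class as well as the 6 with progenitor or macrophage markers, and in the endothelial-like members with the 6 kept the adhesion list was already at 0.01, the lipid list at -0.63 and the basement membrane list at -0.66. In the endothelial-like members type I interferon genes were past 2-fold lower for 6 of 7, against 25.4% of all genes, with a median of -1.66 and a summed level 0.317 times that of MASH (0.247 to 0.402). Of the 514 MASH UMIs of the list there, 51 lay in the restricted set and the rest in the MASH barcodes with macrophage markers. The restricted set had 1 measured gene of that list, at -0.44, and a summed level 0.508 times that of MASH (0.297 to 0.847).

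Of the remaining lists, Notch was lower for 3 of 4 (-1.02) and matrix turnover higher for 3 of 8 (0.43). Heat shock was higher for 1 of 6 (0.77), ATF4 stress higher for 2 of 5 (0.68), and glucocorticoid and clock genes had 0 of 5 past 2-fold (0.43). Type I interferon genes had 4 of 14 in each direction (0.18), over all members immediate early genes had 3 of 13 higher and 4 lower (0.24), and niche growth factors 2 of 5 in each direction (-0.40). Proliferation genes had 2 of 5 in each direction (-0.09) and stromal chemokines 1 measured gene, Cxcl12 (-0.85).

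**Figure D5:**
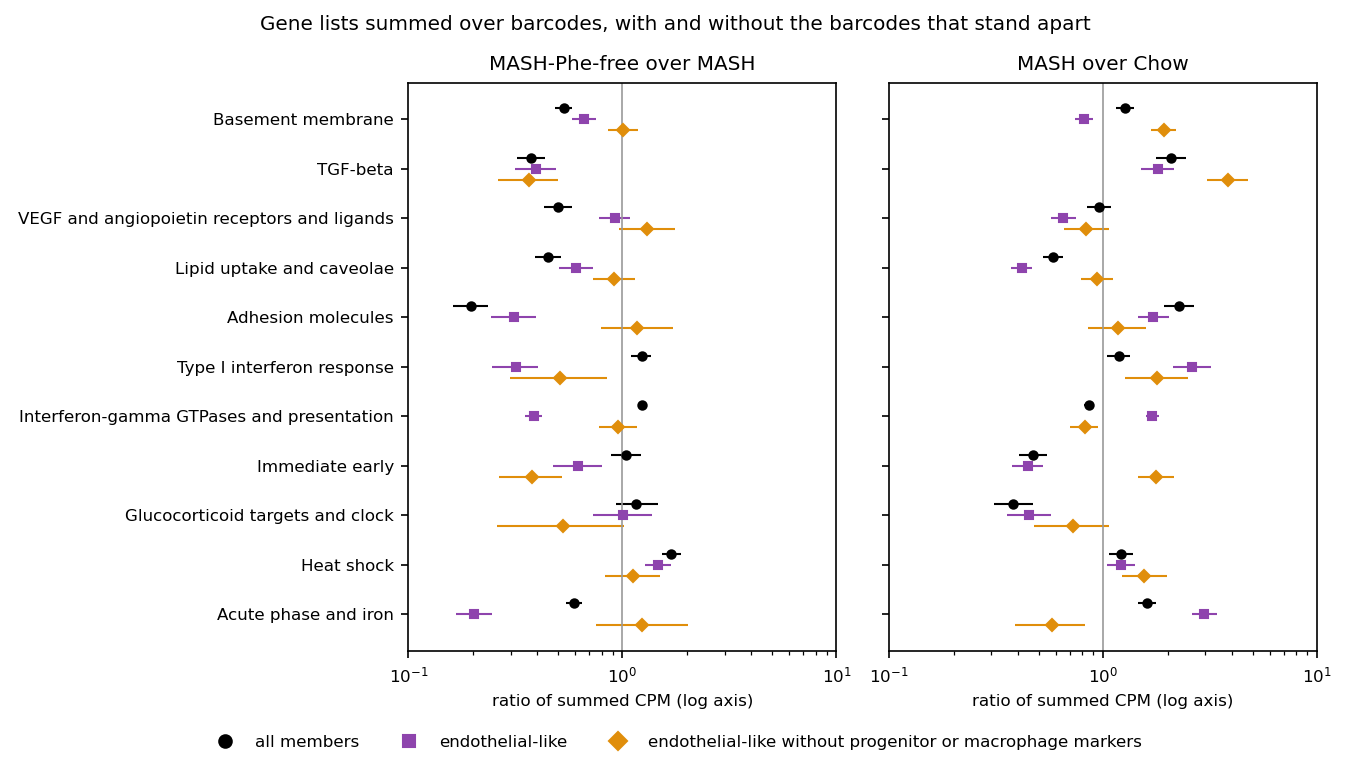
Ratio of the summed level of 11 gene lists, on a log axis with 95% counting intervals, for MASH-Phe-free over MASH and for MASH over Chow, over all members, the endothelial-like members and the restricted set. TGF-beta lies at 0.373, 0.394 and 0.364 in the first comparison and at 2.07, 1.8 and 3.83 in the second, and both share the MASH library. Of its 523 MASH UMIs in the endothelial-like members, 161 lay in the restricted set and the rest in barcodes with macrophage markers. The barcode of 11789 UMIs held 123 of those 161. Most other lists change with the set of barcodes.

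MASH-Phe-free and Chow were also set side by side. Over all members 1399 of 4203 genes (33.3%) differed at least 2-fold, 538 higher and 861 lower in MASH-Phe-free. Lipid genes were past 2-fold lower for 8 of 10 and higher for 1, against 20.5% lower of all genes, with a median of -2.01 beside -0.17 for all genes. Over the restricted set they were lower for 3 of 8 and higher for 1, against 26.7% lower and 13.2% higher of all genes, with a median of -0.24 beside -0.13. Without Fabp4 the lipid sum was 0.308 times that of Chow over all members (0.268 to 0.353) and 1.04 times in the restricted set (0.862 to 1.25). Basement membrane genes in the restricted set had a summed level 1.93 times that of Chow (1.68 to 2.22), with 247 of the 290 MASH-Phe-free UMIs from Sparc and Col4a1. Without those genes it was 1.71 times (1.17 to 2.44), on 43 UMIs in MASH-Phe-free and 119 in Chow.

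The genes farthest apart between libraries were mostly genes of 1 to 3 barcodes. Higher in MASH than in Chow over all members were Ftl1 (log2 ratio 1.92), the lysosomal protease gene Ctsb (1.86), Col4a1 (1.72), Lars2 (1.67), Marcks (1.50) and Cltc (1.47). Of the MASH UMIs of Ftl1, 96.4% lay in 3 barcodes, and of those of Col4a1, 58.3%, the lowest share of the 6. Lower in MASH were Plac8 (-2.35), with 142 of 236 Chow UMIs in 1 barcode, the lipid phosphatase gene Plpp1 (-1.52), with 76 of 102 in 1, and Dynll1 (-1.44), Ifitm2 (-1.38), Gngt2 (-1.27) and Sat1 (-1.20). Plac8 and Gngt2 are expressed by monocytes, and the monocyte-gene Chow barcode of 18341 UMIs held 142 and 51 UMIs of them, while 128 of the 231 Chow UMIs of Ifitm2 were in the endothelial-like barcode of 60090 UMIs.

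Higher in MASH-Phe-free than in MASH were Cfap77 (4.42), the intermediate filament gene Vim (3.79), Ly6a (3.59) and the glycolytic enzymes Eno1 (3.21), Ldha (3.19) and Pgam1 (2.93). The barcode of 123979 UMIs held 961 of the 990 Ly6a UMIs, and 1 barcode held 874 of the 973 of Cfap77. Lower were Gphn (-3.04), Ftl1 (-2.58), Camk1d (-2.55), Glul (-2.45), Lars2 (-2.39) and Cltc (-2.37), and 3 MASH barcodes held between 76.3% and 96.4% of their UMIs there. These 2 sets of genes describe a few deep barcodes and not a shift shared by the members.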

How the data were processed

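Spleen cells were captured with a 10x 5′ kit, per the labels' protocols. The deposited matrices hold whole-number UMI counts per gene and barcode from Cell Ranger 9.0.1, per the file headers. GRCm39 (mm39) and Seurat 5.3.0 appear in the submitters' processing notes without a role, and no source used here gives the annotation release. The deposited tables of barcodes and of 33696 genes hold names only. The gate members, the marker lists and the 19 gene lists were chosen with earlier results of these data known, and the restricted set, the sums without single barcodes and the sums without gate genes after the data were seen.

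The 52492 deposited barcodes were filtered to 49499, and the deposited libraries held 160115282, 152501471 and 138787602 UMIs in the MASH-Phe-free, MASH and Chow spleens. Counts were summed over members of a library and given as CPM of member UMIs. Ratios used an offset of 10 CPM and genes with at least 20 UMIs over both libraries. Intervals are at 95%: Clopper-Pearson for shares, a log-scale interval for ratios of shares and a conditional Poisson interval for ratios of sums. All cover counting error only, and no test between groups was made. The computation used Python 3.11.15, numpy 2.4.6, scipy 1.17.1 and pandas 2.3.3, and was tested on simulated data.

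The genes farthest apart were the 6 in each direction with at least 50 UMIs, at least 100 CPM, UMIs in at least 10 members of the higher library, an interval away from 1, and at least 2 times the CPM of the other barcodes there. Genes of haemoglobin, antibodies, T cell receptors, ribosomal proteins and mitochondria, Xist and Y-linked genes were not eligible. Up to 4 genes per list and the genes that lead the members were also eligible. Single barcodes, and the genes described within them or within the endothelial-like members, were named after their values were seen.

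Doublets were not removed in the main values. Scrublet, in scanpy 1.11.5, called 2.05%, 1.9% and 2.26% of the MASH-Phe-free, MASH and Chow barcodes, against expected shares of 12.7%, 14.1% and 12.8%, and called none of the 68 members.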

Additional observations from a re-analysis of the deposited data

How the results depend on the processing

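All values here are log2 ratios or counts. No paired analysis was possible because each group was 1 library and the labels carry no replicate numbers. The ratio of gate shares of MASH to Chow, -0.96, was 0.30 when at least 4 of 9 gate genes were required. That of MASH-Phe-free to MASH, 0.46, was -0.58 then. It was -0.76 with barcodes under 1000 UMIs left out and the others thinned to 1000 UMIs each. The endothelial-like ratio of MASH to Chow, -0.78, was 1.03 among barcodes with at least 1000 genes, where the mesenchymal-gene class had no MASH member and gave no value. The other 46 of 50 alternative shares moved within counting error.

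The number of genes tested changed with the choice, so shares are given where it did. For MASH over Chow, 879 of 4072 genes past 2-fold (21.6%) became 497 with an offset of 50 CPM, 3529 of 13231 with no UMI minimum, 1674 with members weighted alike, 18 of 29 (62.1%) in the mesenchymal-gene members, 148 of 371 (39.9%) in members with under 3 blood cell genes, 483 of 1284 (37.6%) in the restricted set and 581 (45.2%) in that set weighted alike. The 10 of 19 lists above the median of all genes became 6 of 7 measured in the mesenchymal-gene members and 6 of 16 in the restricted set. For MASH-Phe-free over MASH, 1686 of 4534 (37.2%) became 1044 with an offset of 50 CPM, 4404 of 13848 with no minimum, 1008 of 2806 (35.9%) in the endothelial-like members, 776 of 1028 (75.5%) in the mesenchymal-gene members, 182 of 420 (43.3%) with under 3 blood cell genes, 778 of 2647 (29.4%) without the deepest members, 60 of 343 (17.5%) in the restricted set and 85 (24.8%) in that set weighted alike. Its 10 of 19 lists became 5 of 16 measured in the endothelial-like members, 4 of 19 without the deepest, 6 of 11 in the restricted set and 5 of 11 in that set weighted alike.

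Among lists with a main median under 2-fold, some changed sign and are not listed below. For MASH over Chow, Notch genes went from 0.60 to -1.63 in the endothelial-like members. Immediate early genes went from -0.97 to 0.65 in the restricted set. The values below changed sign among the genes farthest apart and the lists whose main median was at least 2-fold in either direction. Without the deepest members: Plpp1 0.19 for MASH over Chow, and interferon-gamma genes -0.48 and Ly6a -0.51 for MASH-Phe-free over MASH. Weighted alike: niche factors -0.01, acute phase and iron genes -0.28 and Marcks -0.30 for MASH over Chow, and acute phase and iron genes 0.05, Ly6a -0.06 and Pgam1 -0.32 for MASH-Phe-free over MASH. Endothelial-like: Plac8 2.93 and Sat1 1.87 for MASH over Chow, and adhesion molecules 0.01, interferon-gamma genes -0.74, Ly6a -0.47 and Pgam1 -0.04 for MASH-Phe-free over MASH. Restricted set: acute phase and iron genes -0.89, Ftl1 -1.04, Ctsb -0.67, Marcks -0.12, Dynll1 0.19, Gngt2 0.87 and Sat1 1.68 for MASH over Chow, and adhesion molecules 0.45, VEGF genes 0.58, lipid genes 0.00, acute phase and iron genes 0.42, Cfap77 -1.71 and Vim -0.12 for MASH-Phe-free over MASH. Restricted set weighted alike: acute phase and iron genes -1.13, Ftl1 -1.23, Lars2 -0.59, Marcks -0.69 and Dynll1 0.09 for MASH over Chow, and adhesion molecules 1.40, VEGF genes 0.19, lipid genes 0.60, interferon-gamma genes -0.67, acute phase and iron genes 0.27, Cfap77 -1.05 and Ly6a -0.86 for MASH-Phe-free over MASH. Under 3 blood cell genes: acute phase and iron genes -0.85, Ftl1 -0.85, Marcks -1.37, Plpp1 0.54 and Dynll1 0.33 for MASH over Chow, and basement membrane genes 0.63, adhesion molecules 2.59, VEGF genes 1.26, lipid genes 2.44, acute phase and iron genes 1.15, Cfap77 -0.17 and Ly6a -0.24 for MASH-Phe-free over MASH. Mesenchymal-gene members, for MASH-Phe-free over MASH: VEGF genes 1.99, lipid genes 4.64, complement -2.65, acute phase and iron genes 2.19 and Ftl1 0.28. Fewer barcodes and fewer measured genes enter each of these sets, and the cause of the changes was not tested. With 17 to 30 members a library, most of them shallow, the counts limit every value to a description of these barcodes.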
